A study of Rattus norvegicus with 21 samples.

Results

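The expression of 8 transcription factor genes of the interneuron lineage, Dlx1, Dlx2, Dlx5, Dlx6, Lhx6, Sp9, Satb1 and Nr2f2, was followed in 21 single cultured rat hippocampal neurons. A gene was taken from the deposited table by its symbol, which gave a row for 6 of the 8; Dlx6 and Lhx6 have no row under their symbols. For Nr2f2, which has 2 rows, the row with the higher mean was used. The whole table has 34976 rows, and 16245 distinct gene symbols.

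All neurons came from the hippocampi of Wistar rats at embryonic day 18 that carried a Venus fluorescent reporter for the vesicular GABA transporter (VGAT), and all had spent 17 days in vitro before they were patched, recorded and aspirated. In 5 GABAergic neurons from purified cultures, oligodendrocyte conditioned medium (OCM) had been added at day 3; it was collected from oligodendrocyte cultures of postnatal day 2 rat cortex. Another 5 GABAergic neurons came from purified cultures without OCM. Purified cultures had received the antimitotic agents FdU and U at 5 µM from 24 h after dissection, removed after 36 h, and the OCM was added to such cultures. From cultures that kept their glia there were 6 GABAergic and 5 pyramidal neurons. Each library is the aspirated content of 1 cell. Neither animals nor cultures are named for the cells, so each group counts as a single sample. For that reason no test was run, and an SD or a range tells how cells of a group varied.

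Dlx1, Dlx2, Dlx5 and Dlx6 encode homeodomain factors that, as known mainly from the mouse, act in progenitors and young neurons of the ganglionic eminences, where forebrain inhibitory neurons arise. Sp9 is a zinc finger factor of the same lineage, and Lhx6 a LIM homeodomain factor of cells from the medial eminence. In mouse, the chromatin organizer Satb1 acts after Lhx6 in the maturation of somatostatin interneurons, whereas the nuclear receptor Nr2f2, also called COUP-TFII, marks many interneurons of the caudal eminence.

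Values are the authors' normalized signal per gene, from which whole reads were recovered. Depth ran from 1817671 to 25160911 reads per cell, and 3992 to 6331 rows were above 0 in OCM-treated, 2573 to 4065 in purified, 3760 to 8652 in glia-cultured GABAergic and 2540 to 5325 in pyramidal neurons. Over the 16 GABAergic neurons, the number of listed factors above 0 went with the number of rows above 0 (Spearman's rho 0.65, a description over cells that share their groups). Slc32a1, which encodes VGAT, had reads in all 16 GABAergic and in 0 of 5 pyramidal neurons. Slc17a7, the vesicular glutamate transporter of pyramidal cells, had reads in 0 of 16 GABAergic and in 4 of 5 pyramidal neurons. Pyramidal cell 3 had none of it and none of the 5 glutamatergic markers, with Mbp, the myelin basic protein gene, at 278859. That cell did have 2 other genes of glutamatergic neurons, Neurod2 at 1770 and Bhlhe22 at 46.9. Its summed astrocyte markers were at 63925.3, with reads in 3 of 5. Of 5 microglia markers it had reads in 1, Aif1, at 12525.5, and Cx3cr1, Csf1r, Itgam and P2ry12 were at 0. Pyramidal cell 4 had Mbp at 95386 beside Slc17a7 at 7887. The summed oligodendrocyte markers reached 9.16 in OCM-treated, 29.7 in purified, 1148 in glia-cultured GABAergic and 317022 in pyramidal neurons. Intervals for shares of cells below take the cells as independent draws, which cannot be checked with animals and cultures unnamed. Intervals and floors from reads cover counting error only.

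**Figure D1:**
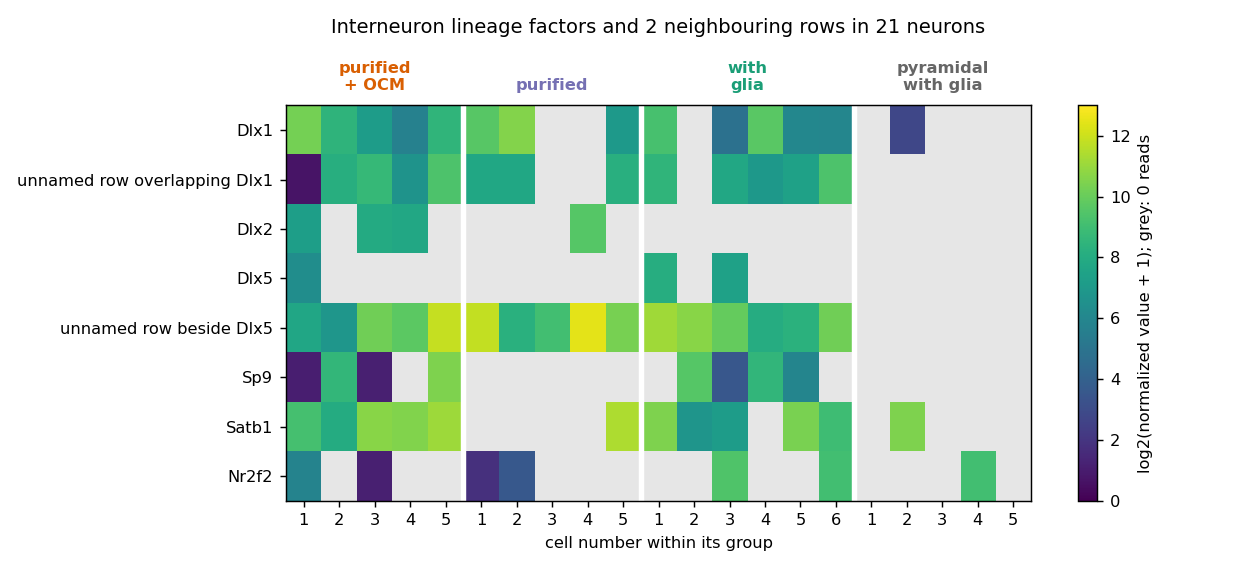
Log2(normalized value + 1), as colour, of 6 factors and of 2 rows without a symbol (rows of the plot) in each of the 21 neurons (columns, by group). Grey marks 0 reads. Dlx1 and Satb1 fill all 5 OCM-treated cells, and the row beside Dlx5 fills all 16 GABAergic and none of the 5 pyramidal cells.

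In the files' coordinates on rn6, Dlx1 spans chr3:58164931-58169521 and Dlx2 chr3:58180088-58181971, with 10566 bases between them. Sp9, at chr3:59981959-59984489, starts 1799987 bases beyond Dlx2. Dlx5 lies on another chromosome at chr4:32387740-32392007, Satb1 at chr9:2202509-2274629 and the Nr2f2 row used at chr1:131448737-131454691. In the rat gene table of assembly GRCr8, used for names and neighbours only, Dlx6 lies between Sem1 and Dlx5, and Lhx6 between Morn5 and Rbm18. The deposited table has 0 rows between Morn5 and Rbm18.

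RefSeq promoter sequences on GRCr8, a build other than that of the files, were found for 4 of the 8 genes, Dlx1, Lhx6, Sp9 and Satb1. The 250 bases before the start are shown for the 3 of them that have values here. Dlx1 is at chr3:76763614-76763863 on the plus strand, Sp9 at chr3:78554095-78554344 on the plus strand and Satb1 at chr9:4989926-4990175 on the minus strand, each printed 5′ to 3′ along the gene. Capitals mark CCAAT, here as its reverse complement ATTGG.
Dlx1: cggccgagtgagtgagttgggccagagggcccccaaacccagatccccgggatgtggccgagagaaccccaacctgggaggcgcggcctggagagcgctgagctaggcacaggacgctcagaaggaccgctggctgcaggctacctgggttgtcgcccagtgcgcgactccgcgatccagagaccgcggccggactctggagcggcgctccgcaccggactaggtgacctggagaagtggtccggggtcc
Sp9: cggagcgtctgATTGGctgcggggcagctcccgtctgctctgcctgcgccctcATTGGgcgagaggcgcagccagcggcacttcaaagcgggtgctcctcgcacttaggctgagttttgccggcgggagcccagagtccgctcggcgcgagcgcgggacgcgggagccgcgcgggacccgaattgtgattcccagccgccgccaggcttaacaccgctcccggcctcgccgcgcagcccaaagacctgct
Satb1: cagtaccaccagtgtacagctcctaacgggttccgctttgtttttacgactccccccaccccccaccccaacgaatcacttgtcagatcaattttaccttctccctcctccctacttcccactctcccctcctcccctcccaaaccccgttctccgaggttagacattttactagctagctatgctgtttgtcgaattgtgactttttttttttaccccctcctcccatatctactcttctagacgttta

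The promoters of Dlx1 and Sp9 were rich in G and C, at 69.2% and 70.4%, against 49.2% for Satb1. On both strands, the homeodomain core TAATTA, the GC box GGGCGG, the CCAAT box and the TATA box TATAAA were searched; no motif overlaps another in these windows. The CCAAT box occurred in the Sp9 window at 197 and 239 bases before the start. None of the 4 motifs was in the Dlx1 or the Satb1 window, and Lhx6 held 1 GGGCGG at 62 bases before its start. Of all 33469 RefSeq promoter windows of this length, 4.86% held TAATTA, 30.5% GGGCGG, 34.02% CCAAT and 12.9% TATAAA, so the Sp9 motif is a common one.

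Dlx1, which in mouse is needed for the survival of some interneurons after birth, was the Dlx gene seen most often. OCM-treated neurons had Dlx1 at 1229, 346, 142, 51.9 and 360. Purified neurons had 784, 1545, 0, 0 and 127. Among glia-cultured GABAergic neurons Dlx1 was at 595, 0, 27.98, 813, 64.5 and 62.3. In pyramidal neurons it was at 0, 5.90, 0, 0 and 0, the value above 0 being a single read. It was thus above 0 in 5 of 5, 3 of 5 and 5 of 6 GABAergic neurons of the 3 cultures, 13 of 16 in all (81.2%, exact 95% interval 54.4 to 96.0%). The pyramidal cell with 1 Dlx1 read was cell 2, which also had Gad2, a GABA-synthesizing enzyme gene, at 714. Slc32a1 and Gad1, another such enzyme gene, were at 0 in that cell. Pyramidal cell 1 had Gad2 at 924 and Dlx1 at 0. The part of inhibitory transcripts in the 1 Dlx1 read of cell 2 was not tested. The group means were 426 ± 468 (SD, n = 5) with OCM, 491 ± 673 (n = 5) in purified, 260 ± 351 (n = 6) in glia-cultured GABAergic and 1.18 ± 2.64 (n = 5) in pyramidal neurons. The 3 GABAergic groups overlap in their ranges and do not differ beyond their spread. The mean of glia-cultured GABAergic neurons was 221 times that of pyramidal neurons, with a counting interval of 39.6 to 8719 set by that 1 read.

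Dlx2, the neighbour of Dlx1 and its partner in the eminences, was seen in fewer cells. OCM-treated neurons had Dlx2 at 155, 0, 244, 218 and 0, and purified neurons at 0, 0, 0, 764 and 0. It was at 0 in all 6 glia-cultured GABAergic neurons, which allows a share of cells with reads of up to 45.9%, and in all 5 pyramidal neurons, which allows up to 52.2%. Of the 4 neurons with Dlx2 reads, 3 were OCM-treated cells that also had Dlx1. The fourth, purified cell 4, had Dlx2 and no Dlx1. The mean with OCM was at least 174-fold higher than in glia-cultured GABAergic neurons, taking 3 reads over the group as the floor.

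Dlx5, which in mouse lies under Dlx1 and Dlx2 in the same cascade, was at 82.5 in OCM-treated cell 1 and at 277 and 175 in cells 1 and 3 of the glia-cultured GABAergic neurons. It was at 0 in the other 4 OCM-treated, all 5 purified, the other 4 glia-cultured GABAergic and all 5 pyramidal neurons. All 3 neurons with Dlx5 also had Dlx1 and Satb1. Reads of at least 1 of Dlx1, Dlx2 and Dlx5 were present in 5 of 5 OCM-treated, 4 of 5 purified, 5 of 6 glia-cultured GABAergic and 1 of 5 pyramidal neurons; with at least 10 reads required, the count became 0 of 5 in pyramidal neurons and did not move in the other groups.

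A row without a symbol next to Dlx5 separated GABAergic from pyramidal neurons in every cell. It spans 48148 bases at chr4:32333356-32381503 and ends 6236 bases before Dlx5. Its values were 207, 111, 1152, 844 and 3657 in OCM-treated neurons, and 3548, 309, 535, 5736 and 1295 in purified neurons. Glia-cultured GABAergic neurons had 2281, 1635, 971, 261, 310 and 1180, and all 5 pyramidal neurons had 0 reads. The lowest GABAergic value rested on 219 reads, and the glia-cultured GABAergic mean of 1106 was at least 313-fold higher than in pyramidal neurons. Of the 34976 rows, 574 were above 0 in each of the 16 GABAergic neurons, and 2 of these were at 0 in each pyramidal neuron. One was Slc32a1, the gene behind the reporter, and the other was this row. No row had the opposite pattern. The row was singled out after its values were seen. In GRCr8, the stretch on this side of Dlx5 holds Dlx6 and a long non-coding RNA gene that overlaps it; the files do not pair the row with either, so its values are given to no gene.

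A second row without a symbol, at chr3:58167463-58173473, shares 2059 bases with Dlx1. It had reads in the same 13 GABAergic neurons as Dlx1, from 0.581 to 670, and in 0 of 5 pyramidal neurons. In OCM-treated cell 1 it rested on 1 read where Dlx1 had 2114, and over the 16 GABAergic neurons the levels of both rows were weakly related (rho 0.34). No source used here says whether the counting used strand, so reads in the shared bases cannot be told apart.

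**Figure D2:**
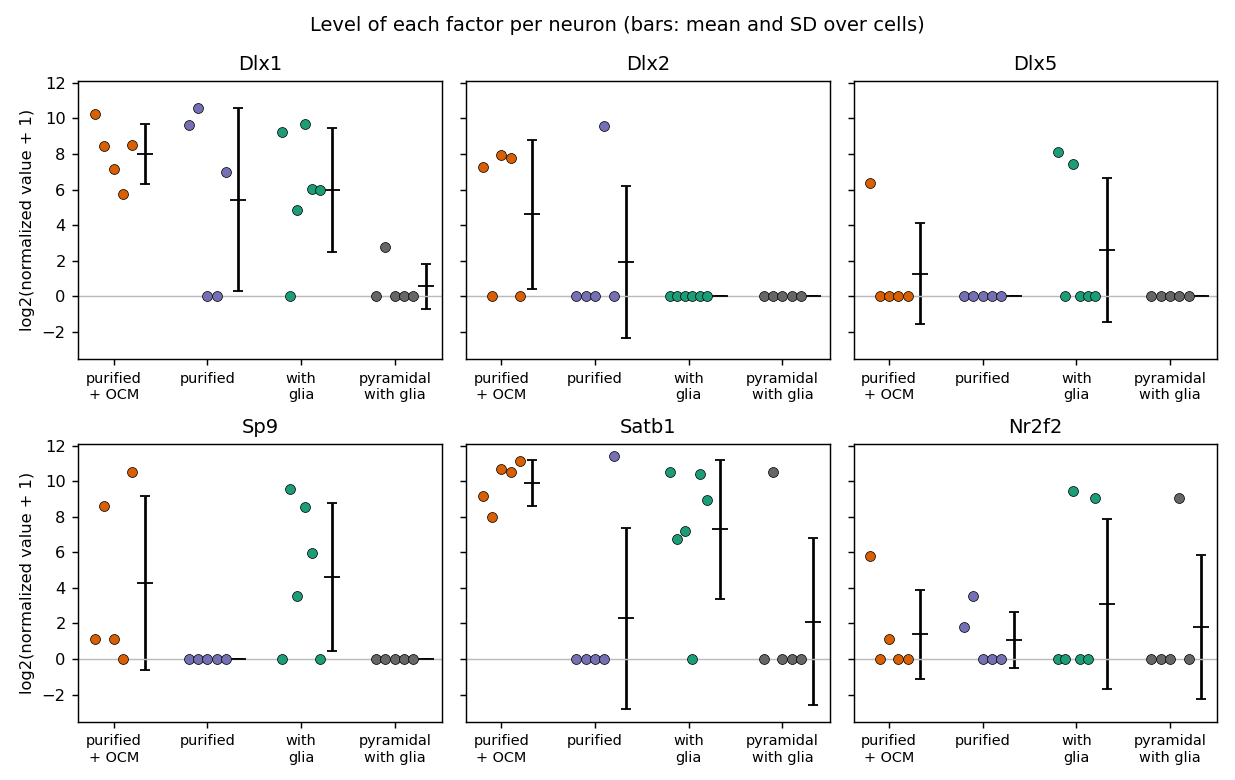
Log2(normalized value + 1) of 6 factors (panels) in each neuron (points), with the mean and SD over cells beside each group. Sp9 lies at 0 in all 5 purified and all 5 pyramidal neurons; Satb1 lies at 0 in 4 of 5 purified neurons and above 0 in all 5 OCM-treated ones.

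Sp9, which in mouse promotes the production and migration of eminence-derived neurons, had no reads in purified neurons. OCM-treated neurons had Sp9 at 1.16, 383, 1.22, 0 and 1445, of which the 2 lowest values above 0 rest on 2 reads each. Glia-cultured GABAergic neurons had 0, 766, 10.6, 379, 60.3 and 0. It was at 0 in all 5 purified and all 5 pyramidal neurons, each of which allows up to 52.2% of cells with reads. Sp9 was above 0 in 4 of 5 OCM-treated and 4 of 6 glia-cultured GABAergic neurons, or in 2 of 5 and 4 of 6 with at least 10 reads. Group means were 366 ± 626 (SD, n = 5) with OCM and 203 ± 312 (n = 6) with glia, which do not differ beyond their spread. The OCM mean was at least 223-fold higher than that of purified neurons, and the purified mean at least 123-fold lower than that of glia-cultured GABAergic neurons. Purified neurons had the fewest rows above 0 among the GABAergic groups. With each cell thinned to 1817671 reads, Sp9 was above 0 in 3 of 5 OCM-treated, 0 of 5 purified, 4 of 6 glia-cultured GABAergic and 0 of 5 pyramidal neurons.

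Satb1 was seen in nearly all OCM-treated and glia-cultured GABAergic neurons and in single purified and pyramidal ones. OCM-treated neurons had Satb1 at 579, 257, 1643, 1480 and 2218. Purified neurons had 0, 0, 0, 0 and 2685. Glia-cultured GABAergic neurons had 1455, 107, 144, 0, 1325 and 490, and pyramidal neurons 0, 1433, 0, 0 and 0. Reads were thus present in 5 of 5, 1 of 5, 5 of 6 and 1 of 5 cells of these 4 groups, and thinning to the smallest total moved none of these counts. The group means were 1235 ± 803 (SD, n = 5) with OCM, 537 ± 1201 (n = 5) in purified, 587 ± 645 (n = 6) in glia-cultured GABAergic and 287 ± 641 (n = 5) in pyramidal neurons. No neighbours in the order of these means differ beyond their spread. The highest value of all 21 cells, in purified cell 5, belongs to the 1 purified cell whose title opens with P, where the other 4 open with S, with no stated meaning for these letters. Among cells titled S, Satb1 was above 0 in 5 of 5 OCM-treated neurons, and 4 of 4 purified neurons were at 0, a difference of 9.90 in mean log2(value + 1). The pyramidal cell with Satb1 was again cell 2, on 243 reads; beside the Gad2 value above, it had the somatostatin gene Sst at 118, Slc17a7 at 10875 and Neurod6, a factor of glutamatergic neurons, at 16189. Pyramidal cell 1, with Gad2 at 924, had Satb1 at 0. The part of inhibitory transcripts in the Satb1 value of cell 2 was not tested.

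Nr2f2 was seen at a high level in few cells and did not follow the cell type. OCM-treated neurons had Nr2f2 at 54.6, 0, 1.22, 0 and 0, and purified neurons at 2.47, 10.8, 0, 0 and 0, where the values under 11 rest on 2 to 8 reads. Among glia-cultured GABAergic neurons it was at 686 in cell 3 and 525 in cell 6, and at 0 in the other 4. Pyramidal cell 4 had 532, on 1705 reads, and the other 4 pyramidal neurons had 0. That cell also had Mbp at 95386 and Npy, a neuropeptide gene, at 3712, whose part in its Nr2f2 was not tested. Pyramidal cell 3, with Mbp at 278859, had Nr2f2 at 0 in this row. Means were 11.2 ± 24.3 (SD, n = 5) with OCM, 2.66 ± 4.70 (n = 5) in purified, 202 ± 317 (n = 6) in glia-cultured GABAergic and 106 ± 238 (n = 5) in pyramidal neurons, and all 4 groups include cells at 0. The second Nr2f2 row, of 442 bases at chr1:131447674-131448115 and 621 bases from the first, was at 245 in purified cell 2 and 43.8 in purified cell 5, at 144 and 244 in glia-cultured GABAergic cells 3 and 6, and at 205 in pyramidal cell 4. Purified cell 2 thus had 8 reads in the first row and 181 in the second, so a count on the first row alone understates Nr2f2-labelled reads there.

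Over the 6 genes with a row, reads were present in 20 of 30 pairs of gene and cell in OCM-treated neurons, 7 of 30 in purified, 18 of 36 in glia-cultured GABAergic and 3 of 30 in pyramidal neurons. With at least 10 reads required these counts were 17, 5, 18 and 2, and after thinning 18, 7, 18 and 3. OCM-treated neurons had 3 to 6 of the 6 factors each, purified neurons 0 to 2, glia-cultured GABAergic neurons 2 to 5 and pyramidal neurons 0 to 2. The GABAergic neuron without any of them was purified cell 3, which did have Gad2 at 9006 and Slc32a1 at 1357. OCM-treated cell 1 was the cell with all 6.

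**Figure D3:**
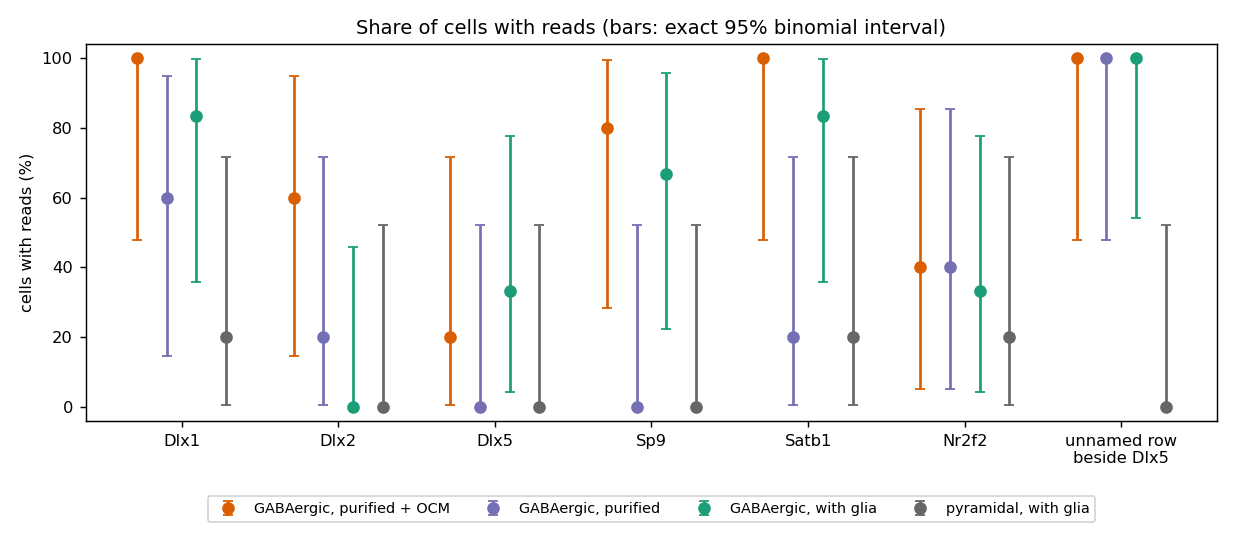
Share of cells with reads (vertical axis, percent) for 6 factors and the row beside Dlx5 in the 4 groups. Bars are exact 95% binomial intervals that take the cells as independent draws. Satb1 stands at 100% with OCM and 20% in purified neurons, with intervals of 47.8 to 100% and 0.505 to 71.6% that overlap.

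The first comparison set glia-cultured GABAergic against pyramidal neurons, which differ in cell type and come from the same type of culture. Differences are of mean log2(value + 1) over cells, among genes above 0 in at least 3 cells of both groups together; 4 factors met this, and a difference of 2, or 4-fold, counts as past the threshold. Dlx1 was higher by 5.40, Satb1 by 5.20 and Sp9 by 4.60 in GABAergic neurons, and Nr2f2 by 1.27. Thus 3 of 4 were higher past 4-fold, against 50.6% of all 6571 genes measured, and 0 of 4 were lower past 4-fold, against 7.47%. Sp9, at 0 in pyramidal neurons, met the filter through GABAergic cells alone and could only come out higher. The shares over all genes include such genes as well. The median of the 4 factors was 4.90, against 2.05 over all genes, or 5.30 with Sp9 at its bound of at least 57.3-fold. As a ratio of group means Satb1 was 2.05 times higher, under 4-fold, and Dlx1 and Sp9 stayed past it, 2 of 4. Here and below, shares over all genes are of differences of mean log2(value + 1). None is given for ratios, so counts by ratio have no such share beside them. In no measured factor did the groups fail to overlap, against 2.08% of all genes, since glia-cultured GABAergic neurons included cells at 0 for each of them. Among the 3 GABAergic and 3 pyramidal cells titled P, the differences were 6.85 for Dlx1, 6.01 for Sp9, 5.85 for Satb1 and 0.12 for Nr2f2, the last 2 with reads in fewer than 3 of those cells. Without pyramidal cells 3 and 4, which carried the high Mbp, they were 5.03, 4.60, 3.80 and 3.08 in the same order of genes.

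The second comparison set purified against glia-cultured GABAergic neurons. These differ in the glia around them and in the antimitotic agents, which cannot be told apart. Satb1 differed by -5.02, Sp9 by -4.60, Nr2f2 by -2.01 and Dlx1 by -0.52, so that 3 of 4 measured factors were lower past 4-fold in purified neurons. Sp9, at 0 in purified neurons, met the filter through glia-cultured cells alone and could only come out lower. Nr2f2 came to -0.16 with both its rows summed and to -1.97 with all cells scaled to 1 total, and each leaves 2 of 4. Of all 6302 genes measured, 51.7% were lower past 4-fold, and 5.73% were higher, against 0 of 4 factors. The median over the 4 factors was -3.30, or -3.51 with Sp9 at its bound, against -2.13 over all genes. For Satb1 the difference is one of detection: the ratio of the group means was 0.915, because purified cell 5 was so high, and the difference grew to -7.29 when that cell was left out. Dlx1 had a ratio of 1.89, the opposite direction, and its difference ranged from -1.81 to 0.84 with any 1 cell left out. The ratio of Nr2f2 was 0.0132, lower past 4-fold. Its difference sat at the threshold and came to -0.74 without glia-cultured cell 3 and -0.81 without cell 6, and to -1.74 without any 1 of purified cells 3, 4 and 5. Of the cells titled S, 4 were purified and 1 was glia-cultured; between these the differences were -8.94 for Satb1, -7.70 for Nr2f2, -0.93 for Dlx1 and 0 for Sp9.

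The third comparison set OCM-treated against purified neurons, which differ in the medium. Satb1 was higher by 7.63, Sp9 by 4.27, Dlx2 by 2.68 and Dlx1 by 2.58 with OCM, and Nr2f2 by 0.32. The Nr2f2 difference turned to -1.47 with both its rows summed, and the second row alone differed by -2.48, on 2 reads with OCM. Thus 4 of 5 measured factors were higher past 4-fold, against 39.3% of all 5143 genes measured, and 0 of 5 were lower past it, against 10.1%. Sp9, at 0 in purified neurons, met the filter through OCM-treated cells alone and could only come out higher. With at least 10 reads required, 2 of 5 OCM-treated cells had it. The median of the measured factors was 2.68, against 1.40 over all genes. Dlx1 and Dlx2 gave the opposite direction as a ratio of group means, 0.867 and 0.809, because the highest value of each gene was in a purified cell; that of Satb1 was 2.30, under 4-fold. Their differences also fell under 4-fold without 1 cell: Dlx1 came to 1.22 without purified cell 3 or 4, both at 0, and Dlx2 to 1.85 and 1.89 without OCM-treated cell 3 or 4. In the other direction, Dlx1 came to 3.86 without purified cell 2 and Dlx2 to 4.60 without purified cell 4. Sp9 came to 2.71 without OCM-treated cell 5, whereas Satb1 ranged from 7.06 to 9.90 with any 1 cell left out. Among cells titled S, the differences were 9.90 for Satb1, 4.27 for Sp9, 2.96 for Dlx1, 2.21 for Dlx2 and 0.05 for Nr2f2.

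The fourth comparison set OCM-treated against glia-cultured GABAergic neurons; its groups are those of the comparisons above, so the comparisons share cells. All 6 genes with a row were measured. Dlx2 was higher by 4.60, Satb1 by 2.61 and Dlx1 by 2.06 with OCM, while Sp9 differed by -0.33, Dlx5 by -1.32 and Nr2f2 by -1.69. That is 3 of 6 higher past 4-fold, against 11% of all 6772 genes measured, and 0 of 6 lower, against 30.4%. Dlx2, at 0 in glia-cultured neurons, met the filter through OCM-treated cells alone and could only come out higher. The median of the 6 factors was 0.86, against -0.72 over all genes. As ratios of group means Satb1 was 2.10 times and Dlx1 1.63 times higher, both under 4-fold, whereas Dlx5 and Nr2f2 were lower past 4-fold, at 0.219 and 0.0553. The ratio of Sp9 was 1.81, the opposite direction to its difference. The Satb1 difference came to 1.15 without glia-cultured cell 4, the 1 cell of that group at 0, and the Dlx1 difference to 0.86 without glia-cultured cell 2. The Dlx1 difference was also under 2 without glia-cultured cell 3, at 1.84, or without OCM-treated cell 1, 2 or 5, at 1.49, 1.95 and 1.94. All 5 OCM-treated neurons and 1 of 6 glia-cultured ones are titled S; against that cell the differences were 4.60 for Dlx2, 4.27 for Sp9, 2.03 for Dlx1, 1.28 for Dlx5, which has reads in 1 of these cells, 0.96 for Satb1 and -7.65 for Nr2f2.

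Other transcription factors of inhibitory neurons were set beside these genes. Of 20 listed, 19 have a row, and Nkx2-1, Gsx2, Lhx8 and Sp8, which act mostly in progenitors or in migrating cells, were at 0 in all 21 neurons. Of the 10 measured between glia-cultured GABAergic and pyramidal neurons, 7 were higher past 4-fold and 1 lower (median 3.63), against 50.6% higher and 7.47% lower over all genes. Among the higher ones were Tcf4, a basic helix-loop-helix factor of many neurons, at 4.48 and Maf, a factor of medial eminence cells, at 4.44. The group means of Tcf4 were closer, 2238 in glia-cultured GABAergic and 1576 in pyramidal neurons. Pyramidal neurons had Tcf4 at 4254, 3138, 0, 488 and 0, and glia-cultured GABAergic neurons at 1199 to 4003. The lower one was Nf1x, the files' name for Nfix, at -4.10. Maf was at 219, 0, 0, 92.6 and 0 in OCM-treated neurons, at 0, 313, 148, 0 and 242 in purified neurons, at 0 to 115 in glia-cultured GABAergic neurons and at 0 in all 5 pyramidal neurons. Between purified and glia-cultured neurons, 1 of 9 was higher and 4 lower past 4-fold (median -1.92), against 5.73% higher and 51.7% lower over all genes. Nr2f1, the paralogue of Nr2f2, was lower by 6.11, with reads in 0 of 5 purified and 5 of 6 glia-cultured neurons. Npas1, a factor of caudal eminence cells in mouse, was the 1 gene higher in purified neurons, by 3.33. Between OCM-treated and purified neurons, 1 of 7 was higher and 2 lower (median -0.09), against 39.3% and 10.1% of all genes. Between OCM-treated and glia-cultured neurons 0 of 9 were higher and 3 lower (median -1.58), against 11% and 30.4%. Npas1 was at 951, 6860, 0, 676 and 0 in purified neurons, and differed by -3.97 with OCM, where it was above 0 in 2 of 5 cells.

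Factors of glutamatergic neurons went the other way between the cell types. Of 18 listed, 16 have a row and 9 were measured; 0 were higher and 7 lower past 4-fold in glia-cultured GABAergic neurons (median -3.37), where 50.6% of all genes were higher and 7.47% lower. Bhlhe22 differed by -6.72, Zfp238, the files' name for Zbtb18, by -6.45, Neurod6 by -5.76 and Neurod2 by -5.15, all known from the differentiation of pyramidal cells. Bcl11b, which both excitatory and inhibitory neurons use, was the 1 of 3 measured that was higher past 4-fold in purified than in glia-cultured GABAergic neurons, by 5.07, against 5.73% of all genes. With OCM, 0 of 3 were higher and 1 lower than in purified neurons, against 39.3% and 10.1% of all genes. Between OCM-treated and glia-cultured neurons 1 of 6 was higher and 0 were lower, against 11% and 30.4%.

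Genes of mature interneuron classes were set beside the factors. Of 8 genes of medial eminence classes, Sst, Npy, Pvalb and Elfn1 were measured between glia-cultured GABAergic and pyramidal neurons, and 4 of 4 were higher past 4-fold (median 4.01), against 50.6% of all genes. With OCM, 2 of 3 were higher past 4-fold than in purified neurons, Sst by 10.10 and Npy by 9.77, against 39.3% of all genes. The means of Sst were 140864 with OCM and 48822 in purified neurons, those of Npy 94691 and 37926. Purified cell 5 had Sst at 243977 and Npy at 185668, where the other purified neurons had at most 130 and 3964. Against glia-cultured neurons, 2 of 4 were higher past 4-fold with OCM, against 11% of all genes. In purified against glia-cultured neurons 0 of 5 were higher and 2 lower, against 5.73% and 51.7% of all genes. Of 8 genes of caudal eminence classes, 4 of 4 measured were higher past 4-fold in purified than in glia-cultured neurons (median 3.09), against 5.73% of all genes, with Reln, which encodes reelin, at 6.64. Reln had reads in 5 of 5 purified neurons and Id2 in all but cell 5. Cck and Cnr1, the cannabinoid receptor gene, had reads in purified cells 1 and 2 alone, and in glia-cultured cells 3 and 5. Cnr1 was at 38420 and 14967 in those purified cells, and at 26228 and 6.40 in those glia-cultured cells. Against pyramidal neurons, 1 of 4 was higher and 1 lower in glia-cultured GABAergic neurons, against 50.6% and 7.47%. With OCM, 0 of 3 were higher and 2 lower than in purified neurons, where 39.3% of all genes were higher and 10.1% lower. Cnr1 differed by -5.38 there, which rests on purified cells 1 and 2. Compared with glia-cultured neurons, 0 of 3 were higher and 1 lower with OCM, against 11% and 30.4%. The classes to which a patched cell belongs and its culture cannot be told apart, since each group has 5 or 6 cells. Genes of the GABA phenotype were higher in glia-cultured GABAergic than in pyramidal neurons, Gad1 by 13.73, Gad2 by 9.85 and Slc32a1 by 9.12.

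Of 6385 genes with a symbol seen in at least 4 of the 16 GABAergic neurons, the one whose level ranked most like Satb1 was Npy (Spearman's rho 0.88, n = 16), followed by Fhl1 at 0.87 and Lztr1 at 0.86. Both Satb1 and Npy had reads in 10 neurons and neither in 4, and each was alone in 1. Npy was at 7270 to 276125 in the 5 OCM-treated neurons, all with Satb1. In purified neurons it was at 0, 0, 3964, 0 and 185668, of which the last is the cell with Satb1. The 1 cell with Satb1 and no Npy was glia-cultured cell 2. The rho was 0.87 within the 6 glia-cultured neurons, 0.87 within the 10 GABAergic cells titled S, 0.86 to 0.92 with any 1 cell left out and 0.88 after thinning. Sst, a pair chosen after its values were seen, was at rank 7 for Satb1 with a rho of 0.78, which was 0.49 within glia-cultured neurons; 10 neurons had both, 1 Satb1 alone, 3 Sst alone and 2 neither. These correlations are descriptions over cells that share groups, depth and zeros and may share cultures.

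**Figure D4:**
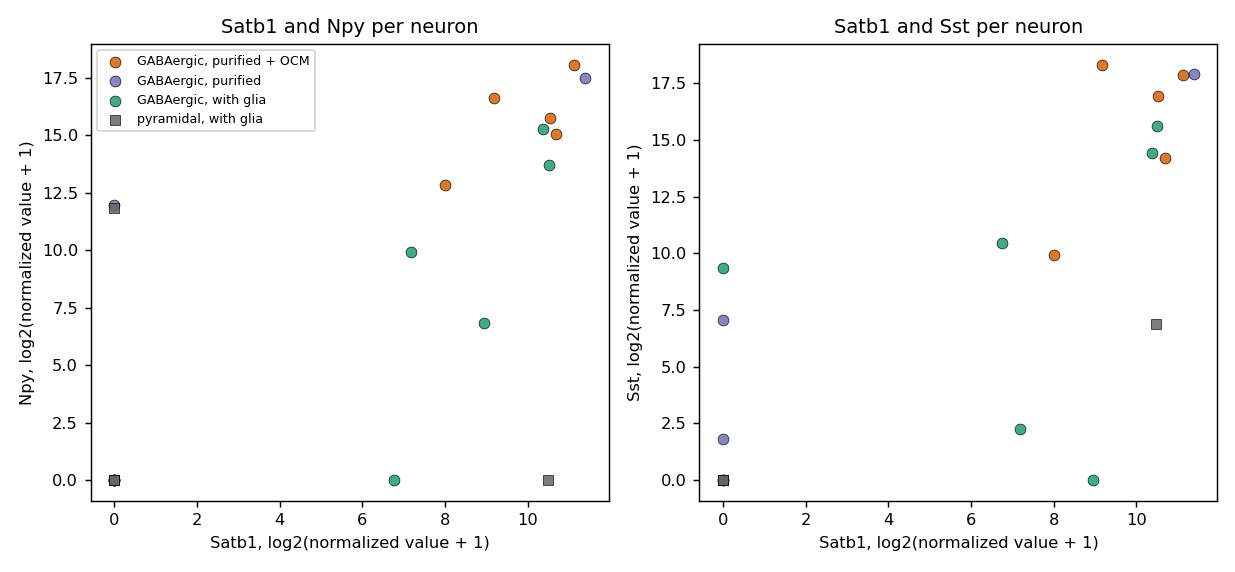
Satb1 (horizontal axis) against Npy (left) and Sst (right), all in log2(normalized value + 1), for each neuron by group; several neurons lie on top of each other at 0 on both axes. Of 16 GABAergic neurons, 10 have reads of both Satb1 and Npy, and 10 of both Satb1 and Sst.

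The genes nearest in rank to the other factors over the 16 GABAergic neurons were Ccdc124 and Mtmr3, both at 0.80, and Ssb at 0.77 for Dlx1; Trmt10b at 0.77 and Ddah2 at 0.76 for Dlx2; Lnx1 and Anxa6, both at 0.89, and Eif2s3 at 0.85 for Sp9; and Actr5 at 0.87, Fzr1 at 0.81 and Dpy19l1 at 0.80 for Nr2f2. Dlx5, seen in 3 of these neurons, was too rare for such a ranking. None of the listed factors was among the nearest 3 of another. Dlx1 and Satb1 were both present in 10 neurons with a rho of 0.04 between their levels, Sp9 and Satb1 in 7 with 0.14, and Satb1 and Nr2f2 in 4 with -0.15.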

How the data were processed

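Per the labels' protocols, libraries came from SMART-Seq v4 cDNA of single patched neurons and Nextera XT. The submitters' processing notes name the build rn6, the aligner STAR 2.4.0, SAMtools, Picard, FastQC and DESeq2; how reads were counted, and on which annotation and strand, has no statement there. Each deposited value is a signal at or above 0, named by the authors as DESeq2-normalized and not divided by gene length, so that levels were not compared between genes. In each cell 100% of values were whole multiples of 1 step within 0.05, which gave back whole reads. A count test on them was not run, since each group is 1 sample.

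The 8 genes and the lists were chosen with earlier results of these data known. Where a symbol had several rows, the one with the highest mean was kept, which left out 355 rows; 18376 rows have no symbol, and 2 listed genes were matched by an older symbol in the table of GRCr8. Differences are of mean log2(value + 1) over cells, for genes above 0 in at least 3 cells; a difference of 2 or more either way is past 4-fold. Floors take 3 reads over a group, and shares have exact Clopper-Pearson 95% intervals. No 2 cells had identical values, and with 1 cell per library there are no shared barcodes. From the lists, up to 6 genes each were named by the largest difference past 4-fold, and 3 genes per factor by Spearman's rho; other genes named were chosen after their values were seen, and a few genes that these rules name are not reported here. Alternatives were pseudocounts of 10 and 0.1, scaling to 1 total or 1 upper quartile, ratios of means, medians over cells, thinning, no filter, 10 reads for detection, each cell left out, cells of 1 title letter and no pyramidal cells 3 and 4; both Nr2f2 rows summed was added after seeing the data. Read recovery, differences of mean log2(value + 1) and the totals after thinning were tested on simulated data first. The other steps were not tested in this way. Computation used scipy 1.17.1, pandas 2.3.3 and numpy 2.4.6 under Python 3.11.15, and plots used matplotlib 3.10.9.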

Additional observations from a re-analysis of the deposited data

Results flagged for a closer look

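Of 18 sets of 1 gene in 1 group that had any spread between cells, 8 held a cell far from the others on the log2(value + 1) scale, by Dixon's criterion. Chance flags about 1 in 20 such sets when values are normally spread, and sets made of zeros and 1 detected cell meet the criterion by construction. Of the 8, 6 are a lone cell with reads among cells at 0: Dlx1 at 5.90 in pyramidal cell 2, Dlx2 at 764 in purified cell 4, Dlx5 at 82.5 in OCM-treated cell 1, Satb1 at 2685 in purified cell 5, Satb1 at 1433 in pyramidal cell 2 and Nr2f2 at 532 in pyramidal cell 4. Nr2f2 at 54.6 in OCM-treated cell 1 stood apart from a cell at 1.22 and 3 at 0. The low cell was glia-cultured GABAergic cell 4, at 0 for Satb1 where the other 5 were at 107 to 1455.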

How the results depend on the processing

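The median difference between glia-cultured GABAergic and pyramidal neurons, 4.90, came to 2.85 with a pseudocount of 10, 7.05 with 0.1, 3.60 without the filter and 6.43 among cells titled P, where only Dlx1 and Sp9 have reads in 3 cells, and to 4.24 to 5.40 with any 1 cell left out; its count past 4-fold was 3 in each of those omissions. For purified against glia-cultured neurons, 3 factors past 4-fold became 1 among cells titled S, where 1 glia-cultured cell is left and Satb1, though past 4-fold, has reads in 1 of 5 cells and so is not counted; with any 1 cell left out the count was 2 to 3 and the median -3.54 to -2.75. For OCM-treated against purified neurons, the median of 2.68 came to 1.39 with a pseudocount of 10, 4.01 with 0.1, 1.20 as a ratio of means with 1 added to each and 1.44 as medians over cells, and the count of 4 to 2, 1 and 2 with a pseudocount of 10, such ratios and medians; without the added 1, Nr2f2 at 4.19 is past 4-fold besides Sp9. With any 1 cell left out they were 2.01 to 4.27 and 3 to 4. As a ratio of means, Dlx1 and Dlx2 reversed to -0.21 and -0.30. Ratios without the added 1 also reversed Dlx1 in purified against glia-cultured neurons, at 1.89. They reversed Sp9 in OCM-treated against glia-cultured neurons, at 1.81. For OCM-treated against glia-cultured neurons, the median of 0.86 came to 2.03 among cells titled S, where Dlx5 is not counted, and to 0.44 to 2.71 with any 1 cell left out, with 2 to 4 factors past 4-fold. Pairs of gene and cell with reads were then 14 to 17 with OCM, 5 to 7 in purified, 13 to 16 in glia-cultured GABAergic and 1 to 3 in pyramidal neurons; 2 of these 3 pairs are in pyramidal cell 2. The cause of these moves was not tested beyond what each alternative changes by construction.

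Scaling to 1 upper quartile moved the median of all genes by 0.52, -0.42, 0.40 and -0.07 in the 4 comparisons, and to 1 total by 0.08, 0.07, 0.06 and 0.11; no factor changed direction, and Nr2f2 in purified against glia-cultured neurons came to -1.97 with 1 total. With both Nr2f2 rows summed, it differed by -0.16 there and by -1.47 between OCM-treated and purified neurons. No paired analysis was possible because the titles give the groups no shared replicate numbers. Each group has 5 or 6 cells. For a factor at 0 in all 5, the exact interval reaches 52.2%. It takes the cells as independent draws, which cannot be checked with animals and cultures unnamed.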
